A study of Mus musculus with 5 samples.

Results

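The copy number and the expression of mitochondrial DNA depend on a small set of nuclear genes, and 10 of them were followed here in ribosome-bound RNA from the midbrain of mice with and without a deletion of Esrrg, which encodes the nuclear receptor ERRγ (estrogen-related receptor gamma). The genes were chosen by symbol: Polrmt, Tfam, Tfb1m and Tfb2m for mitochondrial transcription, Polg, Polg2, Twnk and Ssbp1 for mitochondrial DNA replication, and the nuclear respiratory factors Nrf1 and Gabpa. All 10 were found among the 53700 gene rows of the deposited count table, and all 10 passed a low-count filter of 10 counts in 2 or more libraries. Between the genotypes, 0 of the 10 genes differed at an adjusted p under 0.05. The lowest p belonged to Tfb2m, a mitochondrial transcription factor, whose mean was 26.8% lower after the deletion (log2 fold change -0.45, SE 0.18, DESeq2 adjusted p = 0.0905). Tfam, the main packaging protein of mitochondrial DNA, had a log2 fold change of -0.11 (SE 0.11, DESeq2 adjusted p = 0.670).

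All mice were C57BL/6 by their labels (C57BL/6J in the study's methods), were 4 months old, carried a transgene for the ribosomal protein L10a fused to EGFP and received a virus that carries Cre recombinase (AAV:THCre). In the group L10a;Esrrg WT, here WT, both Esrrg alleles were intact (3 libraries, replicates 2, 3 and 4). In the group L10a;Esrrg Flox, here Flox, the same Cre removed exon 2 of Esrrg, and tissue was taken 1 month later (2 libraries, replicates 2 and 4). BAC-TRAP, the purification of tagged ribosomes with the mRNA bound to them, was done on pooled midbrains, so each library averages several mice. Both the tag and the deletion depend on a tyrosine hydroxylase promoter carried by the virus, which directs Cre to dopaminergic neurons, and both are limited to the cells that the virus reached.

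Mitochondria keep their own circular genome, which encodes subunits of the respiratory chain and the RNAs needed to translate them. POLRMT, the mitochondrial RNA polymerase, starts transcription with TFAM, which bends the promoter and also coats the whole genome, and TFB2M, which opens the DNA. The polymerase POLG with its accessory subunit POLG2, the helicase Twinkle (Twnk) and the DNA-binding protein SSBP1 copy the genome. NRF1 and GABPA are nuclear transcription factors that drive many of these genes, and ERR proteins act on overlapping sets of genes through the coactivator PGC-1α. The comparison of WT with Flox therefore asks whether loss of ERRγ in the adult midbrain was followed by a change in the mRNAs for the machinery of the mitochondrial genome.

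The libraries held between 20635855 and 23105058 counts assigned to genes, at which 3 counts, the limit that a count of 0 allows, equal 0.13 to 0.145 CPM. The 10 genes had 45 to 1444 raw counts per library, far above that limit. Esrrg itself, counted over the whole gene, had 1763, 1643 and 1726 normalized counts (counts divided by the library's size factor) in WT and 1504 and 1170.1 in Flox. Its log2 fold change was -0.35 (SE 0.13, DESeq2 adjusted p = 0.0753), and since only exon 2 is removed, this gene-level value does not measure the deletion. It rests on single libraries, being -0.55 (DESeq2 adjusted p = 0.0058) without Flox replicate 2 and -0.19 (DESeq2 adjusted p = 0.881) without Flox replicate 4. Markers of dopaminergic neurons were abundant, with 5385 to 7005 normalized counts per kb for Th and 2776 to 3270 for Slc6a3, and glial RNA was abundant too, with 7124 to 12365 per kb for the astrocyte gene Gfap. The RNA was thus not limited to dopaminergic neurons, and in such bulk samples fewer cells of a type and less RNA per cell cannot be told apart. The sum of 12 microglial markers was 1886 to 3677 in WT and 6578 and 14703 in Flox, with 10 of the 12 called higher. That of 8 endothelial markers was 128 to 288 in WT and 299.7 and 770.4 in Flox, with 3 called higher. Over all genes tested, 4.2% were called higher. Of the 55 markers of all cell types, 0 were at 0 in any library. The sum of 11 dopaminergic markers was 51078 to 60871 in WT and 52075 and 54810 in Flox. Gene by gene, 9 of these 11 had a lower estimate in Flox and 2 a higher one, against 50.9% lower over all genes tested. Their median was -0.15 in log2. Both Flox libraries lay below all WT libraries for 4 of them, against 22.5% of all genes tested, and above for 2, against 19.9%. Only Ret was called among the 11, at -0.40 in log2 (adjusted p of 0.0029 by DESeq2), where 4.05% of all genes tested were called lower. The part of microglial, endothelial and dopaminergic RNA in the results below was not tested.

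The start regions of the 10 genes were searched for the binding letters of the factors named above. RefSeq (GRCm38.p6) gave 12 start sites for the 10 genes, each with a window from 250 bases before to 50 bases after the start. The core of an ETS site, the kind of site that GABPA binds, was searched as CCGGAAG, the NRF1 site as GCGC, any 2 bases and GCGC, the core of an ERR site as AAGGTCA and the longer ERR response element as TNAAGGTCA, which contains that core, all on both strands. The ETS core was in 7 of the 12 windows and in 7 genes (Polrmt, Tfam, Polg, Polg2, Twnk, Ssbp1 and Gabpa), against 8.86% of all 32851 windows and 11.6% of the 21263 windows of coding genes. The NRF1 letters were in 1 window, that of Polrmt, where they occur at overlapping positions, against 6.23% of all windows and 8.57% of those of coding genes. The ERR core was in 1 window, that of one start site of Twnk, against 4.72% of all windows and 4.08% of coding ones, and the longer ERR element was in 0 of the 12, against 1.28% and 1.03%. These matches are letters in a window of sequence and not measured binding. The 30 bases around 1 match of each kind per gene are shown. A further ETS match in the window of Twnk, 66 bases before the same start, is not shown. They were chosen because the ETS letters are shared by most of these genes and the NRF1 and ERR letters are the matches to the other factors. Each sequence is read on the strand of the gene with the matched letters in capitals, where CTTCCGG is CCGGAAG on the other strand.
Tfam (chr10:71238073-71238102, minus strand, match 47 bases before the start): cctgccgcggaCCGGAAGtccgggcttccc
Polrmt (chr10:79746606-79746635, minus strand, match 43 bases before the start): ccctaagagcgCTTCCGGcagtcgcagaac
Polg (chr7:79466293-79466322, minus strand, match 38 bases before the start): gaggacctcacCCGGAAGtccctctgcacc
Polg2 (chr11:106779548-106779577, minus strand, match 29 bases before the start): cgggtgacgctCTTCCGGgggcgtggtcta
Ssbp1 (chr6:40471410-40471439, plus strand, match 47 bases before the start): ggctccgtgcgCCGGAAGcgagccgctggc
Gabpa (chr16:84835020-84835049, plus strand, match 93 bases before the start): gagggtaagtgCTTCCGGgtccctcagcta
Twnk (chr19:45006437-45006466, plus strand, match 110 bases before the start): ctaaccggtgaCTTCCGGttccggggttgt
Polrmt, NRF1 letters (chr10:79746568-79746597, minus strand, match 6 bases before the start): cctgcaggcgGCGCGTGCGCgtgcgcactg
Twnk, ERR core (chr19:45005529-45005558, plus strand, match 123 bases before another start site): agggtattcacAAGGTCActgcacctagct

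Per length, the 10 genes covered a wide range of levels in WT. Ssbp1 was highest with 545 ± 24.9 normalized counts per kb of its principal transcripts (SD, n = 3), followed by Tfam with 318 ± 13.4, Nrf1 with 221 ± 9.67 and Tfb2m with 160.0 ± 12.7. The lengths of the principal transcripts of Ssbp1 run from 933 to 4398 bases, which puts its level anywhere between 147 and 693 per kb, so its place at the top depends on the length used. Below them lay Polrmt (98.1 ± 6.22), Gabpa (81.5 ± 13.7), Twnk (79.4 ± 3.48), Tfb1m (70.4 ± 2.95), Polg (62.7 ± 1.53) and Polg2 (42.2 ± 10.2). In this order, Polrmt and Gabpa did not differ beyond the spread of their WT libraries, nor did Gabpa and Twnk, and the WT libraries of the other neighbours did not overlap. The order depends on the length used. Gabpa runs from 58.8 to 133 per kb over its principal transcripts, and with all annotated exons counted Ssbp1 (77.4), Nrf1 (37.9) and Tfb1m (27.4) lie lower, while Tfam (298) is then the highest and Polg2 (14.6) again the lowest.

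Among the transcription genes, Polrmt had 394, 349 and 362 normalized counts in WT (368 ± 23.3, SD, n = 3) and 313 and 279 in Flox (296 ± 23.9, n = 2). Both Flox libraries lay below the lowest WT library. The log2 fold change was -0.31 (SE 0.17, 95% interval -0.64 to 0.014), which did not pass the test (DESeq2 adjusted p = 0.275). Without Flox replicate 4, the library with the most microglial RNA, the log2 fold change was -0.24, and it was -0.40 without Flox replicate 2. Tfb2m, the factor that opens the promoter for POLRMT, had 361, 390.3 and 424 normalized counts in WT (392 ± 31.2) and 316 and 257 in Flox (287 ± 41.4). The groups did not overlap, and Flox replicate 4 was the lowest of the 5 libraries. Its fold change was 0.732 (95% interval 0.577 to 0.928), with an unadjusted p of 0.0101 that gave an adjusted p of 0.0905 in DESeq2 and 0.188 in edgeR. Left out in turn, Flox replicate 4 gave Tfb2m a log2 fold change of -0.31 and Flox replicate 2 gave -0.61.

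Tfam had the highest raw counts of the 10 genes, and its values were 1299, 1284 and 1387 normalized counts in WT (1323 ± 55.8) and 1188 and 1262 in Flox (1225 ± 51.8). The Flox libraries lay below all 3 WT libraries, with Flox replicate 4 just under WT replicate 3. The fold change was 0.925 with a 95% interval of 0.793 to 1.08, which does not reach a change of 1.5-fold either way, and it did not pass the test (DESeq2 adjusted p = 0.670). The log2 fold change of Tfam was -0.069 without Flox replicate 2 and -0.16 with only that Flox library kept. Tfb1m, which methylates the small ribosomal RNA of mitochondria and is related in sequence to Tfb2m, had 103, 97.8 and 95.1 normalized counts in WT (98.7 ± 4.14) and 107 and 102 in Flox (105 ± 3.0). Its groups overlapped, with a log2 fold change of 0.083 (SE 0.26, DESeq2 adjusted p = 0.920). The summed level of the 4 transcription genes in Flox was 88.2% and 87.1% of the WT mean, while the WT libraries ran from 97.2% to 104% of it.

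**Figure D1:**
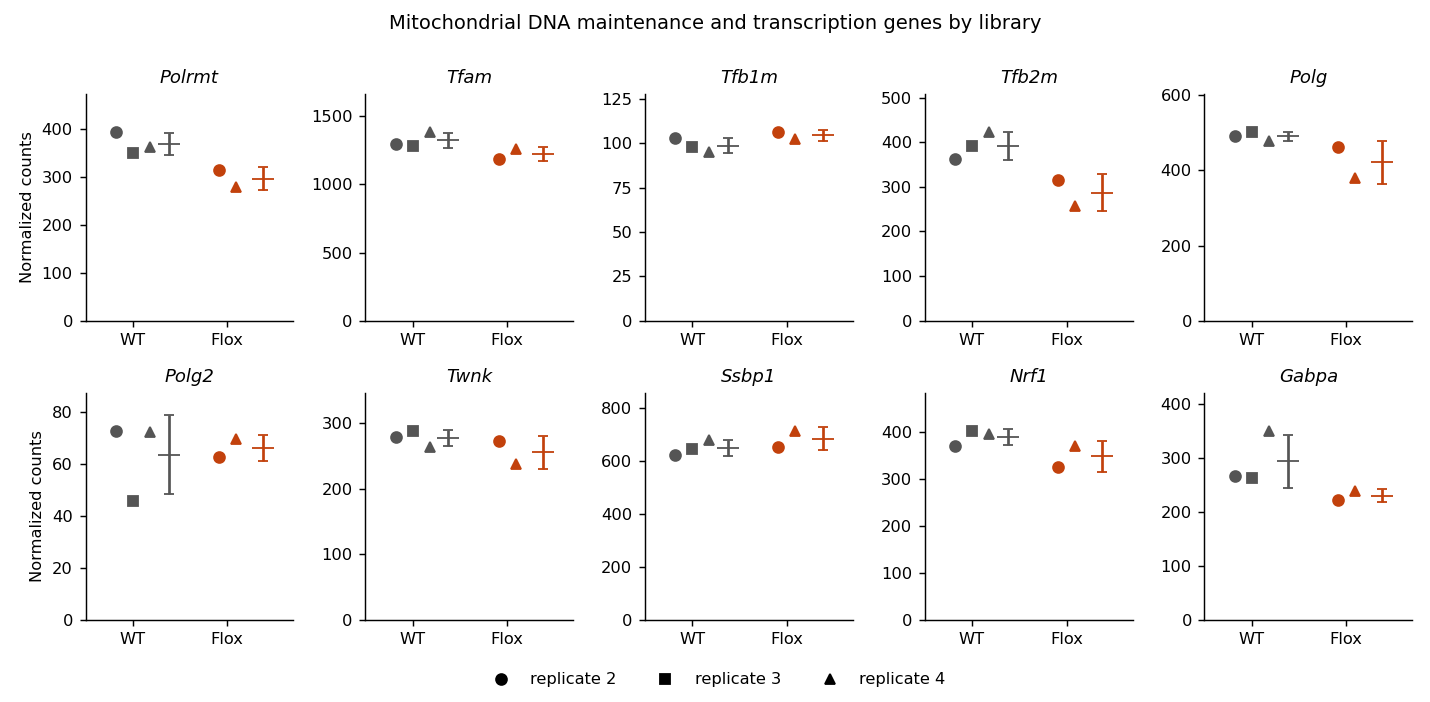
Normalized counts (y axis, linear from 0, a separate scale for each gene) of the 10 genes in 3 WT libraries (grey) and 2 Flox libraries (orange), with the replicate number as the shape of the point and the mean ± SD beside the points. Both Flox points lie below every WT point for Polrmt, Tfam, Tfb2m, Polg and Gabpa, and the groups overlap for the other 5 genes.

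None of the 4 replication genes passed the test, and their summed level was 97.9% and 94.7% of the WT mean in the Flox libraries and 98.9% to 101% of it in WT. Polg, the catalytic subunit of the polymerase, had 492, 503 and 479 normalized counts in WT (492 ± 12) and 462 and 381 in Flox (421 ± 57.5). Flox replicate 4 was far lower than Flox replicate 2, so that the spread within Flox exceeded the distance of Flox replicate 2 from WT. The log2 fold change was -0.22 (SE 0.15, 95% interval -0.52 to 0.081, DESeq2 adjusted p = 0.463), with -0.093 when Flox replicate 4 was left out and -0.37 when Flox replicate 2 was. Polg2, the processivity subunit, had 72.7, 45.9 and 72.1 normalized counts in WT (63.5 ± 15.3) and 62.4 and 69.6 in Flox (66.0 ± 5.05). WT replicate 3 was the lowest of all 5 libraries, and both Flox libraries lay inside the range of WT. Its log2 fold change of 0.055 (SE 0.35, DESeq2 adjusted p = 0.961) had no stable sign, being -0.13 without WT replicate 3 and -0.029 without Flox replicate 4.

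Twnk, the helicase that unwinds the mitochondrial genome ahead of POLG, had 278, 288 and 264 normalized counts in WT (277 ± 12.1) and 273 and 238 in Flox (255 ± 24.9). Flox replicate 2 fell inside the range of WT and Flox replicate 4 below it (log2 fold change -0.12, SE 0.18, DESeq2 adjusted p = 0.805). The estimate for Twnk was -0.025 when Flox replicate 4 was left out and -0.22 when Flox replicate 2 was. Ssbp1, which coats the strand that the helicase exposes, had 619, 643 and 678 normalized counts in WT (647 ± 29.6) and 651 and 713 in Flox (682 ± 43.5). The groups overlapped, and the log2 fold change of 0.076 (SE 0.13) had an interval of -0.19 to 0.34 (DESeq2 adjusted p = 0.835). For Ssbp1 it was 0.0059 with Flox replicate 4 left out and 0.14 with Flox replicate 2 left out.

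Of the nuclear respiratory factors, Nrf1 had 371, 404 and 396 normalized counts in WT (390.1 ± 17.1) and 326 and 372 in Flox (349 ± 32.6). Flox replicate 4 was level with the lowest WT library and Flox replicate 2 was lower (log2 fold change -0.16, SE 0.16, DESeq2 adjusted p = 0.658). Leaving out Flox replicate 2 gave Nrf1 -0.070, and leaving out Flox replicate 4 gave -0.26. Gabpa, the DNA-binding subunit of GABP (also called NRF2), had 267, 263 and 350.2 normalized counts in WT (293 ± 49.1) and 221 and 238 in Flox (229 ± 11.8). Both Flox libraries were below all WT libraries, of which WT replicate 4 stood well above the other two. The log2 fold change was -0.36 (SE 0.20, 95% interval -0.75 to 0.036, DESeq2 adjusted p = 0.314), and -0.21 without WT replicate 4. Neither factor passed the test.

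Across the 10 genes most estimates were below 0 and none passed the test. The estimate was lower in Flox for 7 genes and higher for 3, and 50.9% of the 15724 genes with an adjusted p were lower at any size. Both Flox libraries lay below all WT libraries for 5 of the 10 genes, an arrangement seen in 22.5% of all genes tested, and above all WT libraries for 0, against 19.9%. An adjusted p under 0.05 was reached by 0 of the 10, against 8.25% of all genes tested (1297 of 15724), and with a fold change of at least 1.5 as well by 0, against 3.18%. At an unadjusted p under 0.05, DESeq2 gave 1 gene of the 10, Tfb2m, against 20.3% of all genes. The edgeR quasi-likelihood test called 0 of the 10 after adjustment, as it did for all 29407 genes (0.0%), and gave 2 at an unadjusted p under 0.05, against 15.1% of all genes. With the low-count filter edgeR also called 0 of the 10, against 2.37% of 16711 genes. The median log2 fold change of the 10 was -0.14, against -0.0063 over all genes tested, and the standard errors of the 10 ran from 0.11 to 0.35. The summed normalized counts of the 10 genes were 4257, 4268 and 4508 in WT and 3919 and 3911 in Flox, which is 90.2% and 90.0% of the WT mean. The 95% intervals of Tfam, Polg, Twnk, Ssbp1 and Nrf1 excluded a change of 1.5-fold in either direction, and those of the other 5 genes did not.

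**Figure D2:**
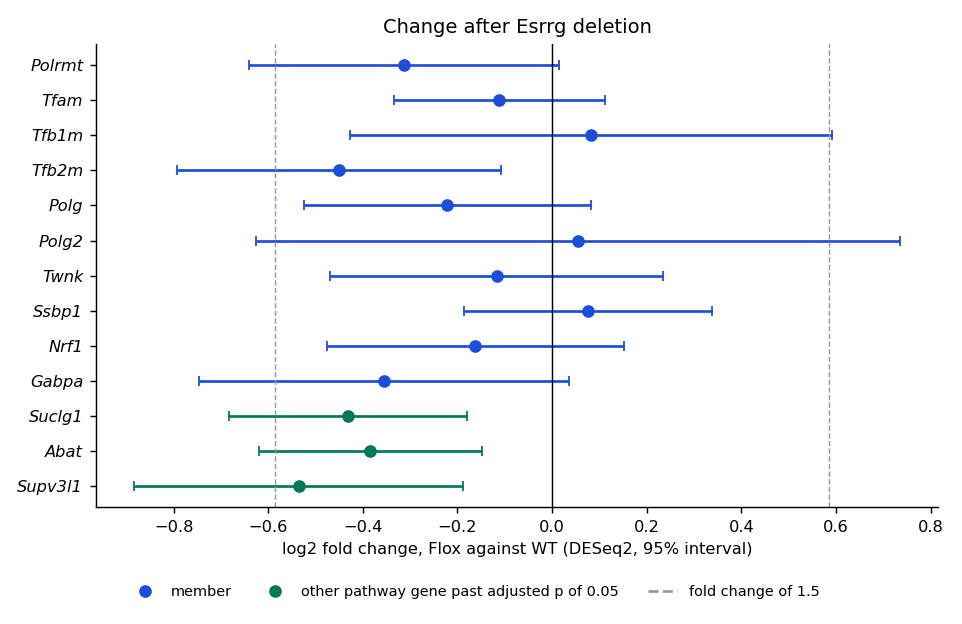
DESeq2 log2 fold change of Flox against WT (x axis) with its 95% interval for the 10 genes (blue) and for the 3 other genes of the pathway with an adjusted p under 0.05 (green), with dashed lines at a fold change of 1.5. The interval of Tfb2m (-0.79 to -0.11) is the only one of the 10 that leaves out 0.

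Reads were counted without regard to strand, and 5 of the 10 genes share exon sequence with a gene on the opposite strand in the reference annotation (GENCODE M21). The shared stretch is 142 bases between Tfb1m and Tiam2, 921 between Polg and Fanci, 132 between Polg2 and Milr1, 507 between Twnk and Mrpl43 and 397 between Gabpa and Atp5j, or 3.03% to 12.6% of the exon sequence of the gene of interest. Mrpl43, a protein of the mitochondrial ribosome, rose from 963, 944 and 992 normalized counts in WT to 1180 and 1267 in Flox, a log2 fold change of 0.34 (SE 0.12, adjusted p = 0.0447 in DESeq2). Reads that fall in several genes are in no gene's count. Reads on the shared bases were thus left out of both genes, where the annotation used for counting has the same overlap. How many reads Twnk and Mrpl43 lost in this way was not tested. Polrmt, Tfam, Tfb2m, Ssbp1 and Nrf1 share no exon bases with another gene.

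The other genes of the pathway were taken from lists of 56 genes by function, of which 55 had a count in at least 1 library (Slirp was at 0 in all 5) and 53 had an adjusted p. Of these 53, 0 rose and 3 fell at an adjusted p under 0.05, or 5.66%, against 4.2% of all genes that rose and 4.05% that fell. The estimate was lower in Flox for 37 and higher for 16, against 50.9% lower over all genes tested, with a median log2 fold change of -0.093. Both Flox libraries lay below all WT libraries for 19 of the 53, an arrangement seen in 22.5% of all genes tested. They lay above all WT libraries for 5 of the 53, against 19.9% of all genes tested.

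The 3 that fell, a share near that of all genes, were Suclg1, Abat and Supv3l1. Suclg1, a subunit of succinyl-CoA ligase that is tied to the nucleotide pool of mitochondria, had 5022, 4852 and 5795 normalized counts in WT and 4274 and 3472 in Flox, a log2 fold change of -0.43 (SE 0.13, adjusted p = 0.0166 in DESeq2). Abat, known for GABA breakdown and also for the salvage of mitochondrial nucleotides, had 7443, 6892 and 8483 in WT and 6203 and 5451 in Flox (-0.38, SE 0.12, DESeq2 adjusted p = 0.0251). Supv3l1, the helicase of the mitochondrial RNA degradosome, had 331, 319 and 329 in WT and 244 and 206 in Flox (-0.54, SE 0.18, DESeq2 adjusted p = 0.0370). In each of them both Flox libraries were below all WT libraries, and Flox replicate 4 was the lower of the pair. Without Flox replicate 4 none of the 3 passed, with log2 fold changes of -0.29 for Suclg1 (DESeq2 adjusted p = 0.596), -0.30 for Abat (0.583) and -0.42 for Supv3l1 (0.717), in a fit that called 78 of all genes in place of 1297. Suclg1 and Abat also lost the call without WT replicate 2 (-0.46 and -0.40, DESeq2 adjusted p = 0.0964 and 0.152) and without WT replicate 4 (-0.35 and -0.30, DESeq2 adjusted p = 0.0509 and 0.0690). Supv3l1 lost it whichever library was left out (-0.66 to -0.42). The edgeR test called 0 of the 55 pathway genes with a count, both without the low-count filter, where it called 0.0% of all genes, and with it, where it called 2.37%.

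By function, 2 of 11 tested genes of nucleotide supply fell and 1 of 18 of mitochondrial RNA processing and stability, against 4.05% of all genes tested. The lists are small, and differences between them were not tested. The remaining lists had 0 called genes, namely 9 further transcription factors and nucleoid proteins, 7 replication and repair enzymes and 8 nuclear regulators. Of all genes tested, 8.25% were called in either direction. The gene with the lowest p among the nucleoid proteins was Lonp1, the matrix protease that degrades TFAM, with 2751, 2565 and 2965 normalized counts in WT and 2365 and 2196 in Flox (log2 fold change -0.28, DESeq2 adjusted p = 0.109). Among the replication and repair enzymes it was the nuclease gene Exog, with 697, 661 and 650.4 in WT and 519 and 523 in Flox (-0.36, DESeq2 adjusted p = 0.0681). Among the nuclear regulators it was Esrrb, a paralog of Esrrg, with 211, 204 and 201 in WT and 140.3 and 137 in Flox (-0.56, DESeq2 adjusted p = 0.0664). In all 3 genes the Flox libraries lay below the WT libraries, and none passed the test.

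**Figure D3:**
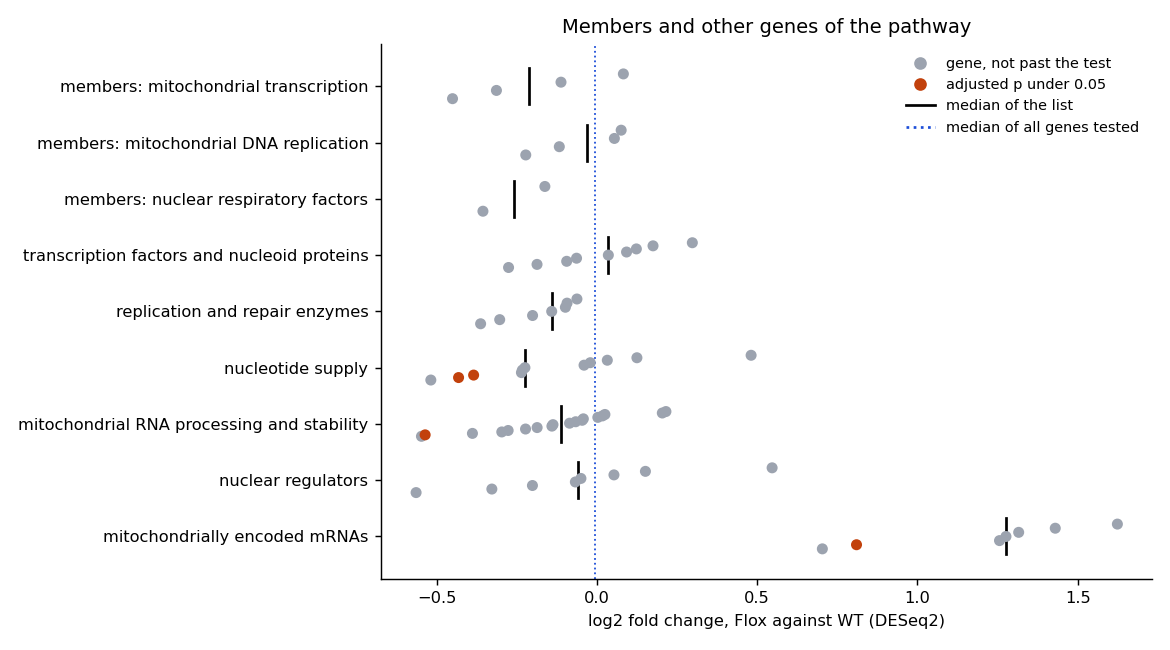
DESeq2 log2 fold change of Flox against WT (x axis) for the 10 genes in their 3 roles (top 3 rows), for 5 lists of other pathway genes and for the mRNAs encoded by mitochondrial DNA, 1 point per gene tested, with genes under an adjusted p of 0.05 in orange, the median of each list as a black bar and the median of all genes tested as a dotted line. The nuclear lists lie between -0.56 and 0.55, and the 7 mitochondrially encoded mRNAs lie between 0.70 and 1.62.

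The counts of mRNAs encoded by mitochondrial DNA, which this machinery transcribes, lay in the other direction. Of 13 such mRNAs, 12 had a count (mt-Atp8 was at 0 in all libraries), 7 were tested, and all 7 were above every WT library in both Flox libraries, where 19.9% of all genes tested were. Each of the 7 was also higher in Flox replicate 4 than in Flox replicate 2, so the 7 do not count as independent genes. One of them, mt-Nd5, a subunit of complex I, rose past the threshold (log2 fold change 0.81, SE 0.19, DESeq2 adjusted p = 9.4e-04). Of all genes tested, 4.2% were called higher. Summed over the list, normalized counts were 8406, 7346 and 9058 in WT and 10586 and 25674 in Flox, or 128% and 310% of the WT mean. Flox replicate 4 stood far above Flox replicate 2 and was also the library with the highest microglial marker sum (515% of the WT mean, against 230% in Flox replicate 2). The tag was on the ribosomal protein L10a, while mitochondria translate these mRNAs on their own ribosomes. Whether tagged ribosomes held these mRNAs was not tested, so the counts do not measure mitochondrial transcription in the tagged cells. The libraries were also poly(A)-selected and mitochondrial sequences have copies in the nuclear genome. What these and the microglial RNA contribute to the counts was not tested.

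**Figure D4:**
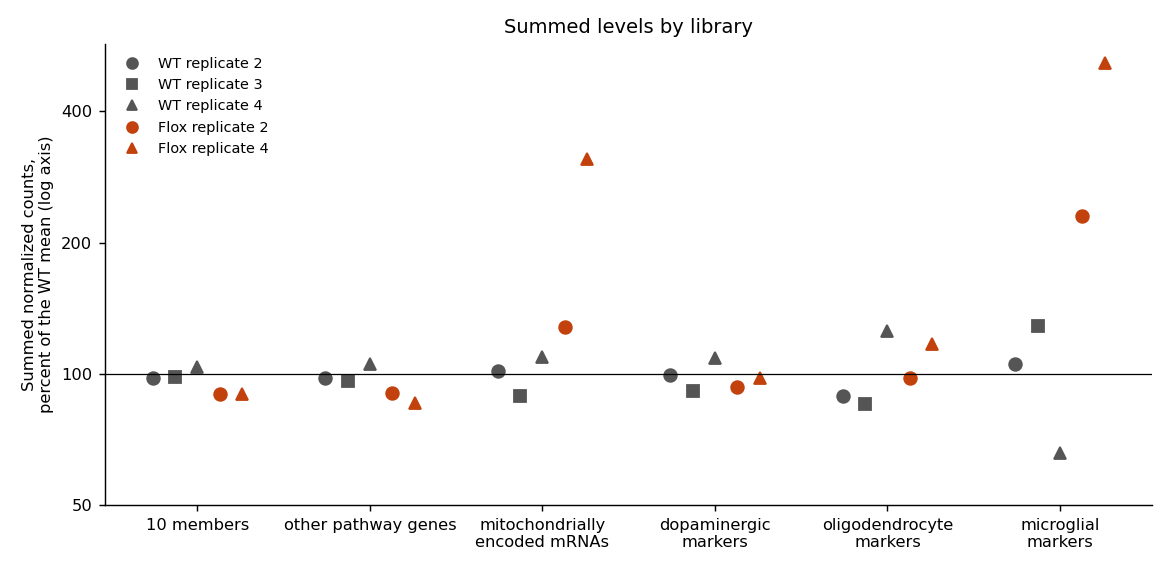
Summed normalized counts of the 10 genes, the other pathway genes, the mitochondrially encoded mRNAs and markers of dopaminergic neurons, oligodendrocytes and microglia, each as a percent of its WT mean (y axis, log scale), with 1 point per library. The 10 genes sit at 98.0% to 104% in WT and at 90.2% and 90.0% in Flox, while the microglial markers sit at 230% and 515% in Flox.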

How the data were processed

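RNA-seq libraries from BAC-TRAP of mouse midbrain were compared between 3 WT and 2 Flox pools. The authors trimmed the reads, aligned them with STAR and counted reads per gene with HTSeq, and the deposited values are raw counts per gene. The study's methods name GRCm38 and GENCODE M24, while the submitters' processing notes name GRCm39, Trim Galore 0.6.6, STAR 2.7.9a and HTSeq 0.11.3, so no gene coordinates are given, and promoter windows carry the RefSeq build GRCm38.p6. Reads outside genes (3.18% to 4.45%), in several genes (5.62% to 5.78%) or in several places (3.60% to 4.23%) are not in any gene's count. Of 53700 gene IDs, 52093 (97.0%) were named by their ID without version from GENCODE M21.

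All 29407 genes with a count in any library were fitted with DESeq2 1.42.0 in R 4.3.3 (Wald test, two-sided, default size factors, independent filtering at 0.05, Benjamini-Hochberg adjustment over all genes tested), and a gene was called at an adjusted p under 0.05. This is the tool of the study, whose rule also asked for a fold change of 1.5. edgeR 4.0.16 was the alternative test, and both were tested on simulated data. Intervals of 95% are the estimate with its standard error under a normal distribution. Levels per kb use the median length of the APPRIS principal transcripts. The genes named are the 10 genes, Esrrg, called genes of the pathway lists or, where a list had none, its gene with the lowest p, and called mitochondrial mRNAs, while Mrpl43 was named after its value was seen. Ret was also named after its value was seen. The genes and lists were chosen with earlier results of these data known. Libraries are pools of mice, so p-values measure the spread between these pools only, and counting limits ignore PCR copies. Replicate libraries differed by more than counting noise (chi-square per degree of freedom 4.54 to 22.2). Control libraries without virus and other replicate numbers were not analysed here.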

Additional observations from a re-analysis of the deposited data

How the results depend on the processing

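Of the 10 genes, 0 passed in any of 14 alternatives (other tests, scaling, filters, length and GC trends, the replicate block, a fold change of 1.5 and each library left out), and their median log2 fold change stayed between -0.16 and -0.13 except at -0.092 with the length trend removed. The lowest adjusted p of Tfb2m was 0.0790, without Flox replicate 2 (DESeq2). The sign of Polg2 reversed to -0.13 with the replicate block and without WT replicate 3, and to -0.029 without Flox replicate 4, and leaving out a library gave it -0.13 to 0.16. Calls among pathway genes were 0 with edgeR, with or without the filter on low counts, 0 with a fold change of 1.5, 5 with that filter in DESeq2, and 0 to 5 when leaving out a library. Suclg1 was called in 8 of 13 alternatives, Abat in 7 and Supv3l1 in 4. Over all genes, calls were 0 with edgeR (4426 at an unadjusted p under 0.05), 396 with edgeR and the filter (added after seeing the data), 500 with a fold change of 1.5 and 476 with the replicate block. Leaving out a library gave 78 (without Flox replicate 4) to 1585 (without Flox replicate 2), with 343 without WT replicate 2 and 649 without WT replicate 3. The cause was not tested. Deviations of same-numbered libraries from their group means correlated at 0.093 and 0.087 over 16711 genes. With 2 Flox libraries the deviations within Flox mirror each other, so these values cannot show whether same-numbered libraries share a batch. With the replicate number as a block, 2 pathway genes were called. With 2 Flox libraries, the 95% intervals of 5 of the 10 genes do not exclude a change of 1.5-fold.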

Other observations

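Ratios of paired genes within each library do not depend on library scaling, and 3 were computed after the values had been seen. Tfb2m to Tfb1m was 3.50, 3.99 and 4.45 in WT and 2.96 and 2.51 in Flox, so that both Flox libraries were lower (exact permutation test, two-sided, p = 0.2, the smallest that 10 arrangements allow). Gabpb1, the partner subunit of GABPA that carries the activation domain, to Gabpa was 1.26, 1.26 and 1.06 in WT and 1.75 and 1.61 in Flox, both higher (exact permutation test, two-sided, p = 0.2). The ratio of Polg2 to Polg, the accessory to the catalytic subunit of the polymerase, was 0.148, 0.0911 and 0.150 in WT and 0.135 and 0.183 in Flox, and the groups overlapped (exact permutation test, two-sided, p = 0.6). Gabpb1 itself had 335, 331 and 372 normalized counts in WT and 387 and 382 in Flox, a log2 fold change of 0.15 (SE 0.16, adjusted p = 0.684 in DESeq2). None of these ratios could reach a p under 0.05 in this design.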
